A study of Homo sapiens with 94 samples.

Results

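Immediate early genes are the first genes that a cell transcribes after a growth factor, a stress or another signal. Their induction needs no new protein. It runs through MAP kinases to serum response factor with its ETS partners and to CREB, and it often turns on the release of polymerase that waits just past the start site. Their messages are short-lived. The set described here holds 10 of these genes, chosen by symbol. EGR1, EGR2 and EGR3 are zinc finger transcription factors. FOS, FOSB and FOSL1 are leucine zipper proteins that pair with JUN and JUNB to form AP-1. IER2 and IER3 are small signal-induced proteins. All 10 had a row among the 18780 gene symbols of the sense total RNA tables. EGR1, EGR2 and FOS had a row among the 5846 initiation regions from PRO-cap, which carry 3758 gene symbols. EGR1 and FOS had a row among the 3888 elongation regions from PRO-seq, which carry 3697. PRO-cap maps the capped 5′ ends of RNA still held by polymerase and so reads initiation, and PRO-seq maps engaged polymerase and here reads elongation past the start site. Nascent values of the other genes of the set are not analysed here.

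The series asks how oxidised or lost cytosine methylation bears on transcription. HEK293 T-REx Flp-In cells, a human embryonic kidney line with a doxycycline-switched transgene, carried a TET catalytic domain fused to GFP (TET-CD-GFP), which oxidises 5-methylcytosine, or its mutated form (TETMut-CD-GFP, here TETmut-CD). Treated groups received 880 nM 5-aza-2'-deoxycytidine (Aza, which traps DNA methyltransferases) for 48 h, 1 µg/mL doxycycline (dox) for 48 h, 25 µM 4-thio-2'-deoxythymidine (thio, a base analogue that sensitises DNA to UVA) for 48 h, UVA of 365 nm at 10 kJ/m2 every 8 h for 4 exposures, or UVA with thio. Each was set against untreated cells of the same line. All cells in these comparisons, untreated cells included, carried a transgene. Cells for Aza, UVA, thio, PRO-cap and PRO-seq carried TET-CD-GFP. A further experiment held G16 and G37, lines labelled MeBP TKO that also carried TET-CD-GFP, and the line beside them, here called MeBP parental. Sample titles of the MeBP parental line name TET WT while its genotype label gives TETMut-CD-GFP. There, 1 dox-treated library also carries the MeBP TKO label, and 1 dox-treated library of G37 lacks it. U2OS T-REx Flp-In cells, a human osteosarcoma line with TET-CD-GFP, received 55 nM Aza or 1 µg/mL dox for 48 h. Each group had 3 libraries, among 63 for total RNA, 9 for PRO-cap and 9 for PRO-seq, and chicken DF-1 cells were added to the PRO samples as a spike-in.

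The tables give comparisons, not samples, so values of single libraries and their depth are unknown here. The mean level of a gene over the libraries stands in for depth. Errors below are standard errors (SE), with 3 libraries a group. Some recovered values, defined next, carry the error of another comparison of their experiment, as given under processing. Judged from their values, the total RNA fold changes had been shrunk towards 0, the more so the noisier the gene. No source used here states this. Unshrunken values were recovered from the deposited fold change, error and p-value (called recovered below). Total RNA values below are recovered ones unless named as deposited. For EGR1 with Aza in HEK293, the deposited value was 0.04 ± 0.11 and the recovered one 0.44 ± 0.31. A gene is called where the authors adjusted its p to under 0.05. More cells with an RNA and more RNA per cell cannot be told apart in bulk samples. INA, a marker listed for HEK293, had mean levels of 853 to 1084 in HEK293 and 1.10 in U2OS, and SPARC, a bone matrix gene, had 5.46 to 44.4 in HEK293 and 40079 in U2OS. Not all listed markers parted the lines. NEFM, listed for HEK293, was near absent in both (1.98 to 10.9), and VIM, also listed for HEK293, had 23947 to 33360 in HEK293 and 80342 in U2OS. LHX1, listed for HEK293, had 124 to 301 in HEK293 and 199.6 in U2OS. MET, listed for U2OS, had 7591 to 8772 in HEK293 and 7272 in U2OS, and CAV1, also listed for U2OS, had 2278 to 3042 in HEK293 and 2665 in U2OS. TET1, read as a check of the transgene, rose with dox in the authors' deposited tables by 2.34 (log2) in TET-CD, 1.98 in TETmut-CD, 2.52 in MeBP parental, 1.97 in G16, 2.46 in G37 and 3.52 in U2OS cells.

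Promoters of the genes with nascent data, and that of FOSB, are shown because the known routes of immediate early induction meet there. Windows run from 250 bases before to 50 bases after the start of transcription in RefSeq (GRCh38.p14), 5′ to 3′ on the gene's strand. Capitals mark CArG boxes, which serum response factor binds, the core TGACGT of the cAMP response element and TATA boxes (TATAAA), each searched on both strands. The capitals of 1 motif do not overlap those of another.
EGR1, chr5:138465229-138465528, plus strand: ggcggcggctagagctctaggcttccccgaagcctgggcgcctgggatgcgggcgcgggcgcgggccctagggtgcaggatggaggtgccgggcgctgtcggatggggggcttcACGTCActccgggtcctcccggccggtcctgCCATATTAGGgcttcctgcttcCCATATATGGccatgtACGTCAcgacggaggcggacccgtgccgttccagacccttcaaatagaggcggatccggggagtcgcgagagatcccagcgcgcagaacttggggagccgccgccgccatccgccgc
EGR2, chr10:62816317-62816616, minus strand, 1 of its start sites: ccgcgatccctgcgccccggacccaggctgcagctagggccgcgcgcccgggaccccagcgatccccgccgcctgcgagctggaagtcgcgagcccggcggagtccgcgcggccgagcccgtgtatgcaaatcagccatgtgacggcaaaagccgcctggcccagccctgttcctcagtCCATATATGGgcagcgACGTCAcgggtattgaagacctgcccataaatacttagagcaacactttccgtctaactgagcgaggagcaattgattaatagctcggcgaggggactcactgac
FOS, chr14:75278578-75278877, plus strand: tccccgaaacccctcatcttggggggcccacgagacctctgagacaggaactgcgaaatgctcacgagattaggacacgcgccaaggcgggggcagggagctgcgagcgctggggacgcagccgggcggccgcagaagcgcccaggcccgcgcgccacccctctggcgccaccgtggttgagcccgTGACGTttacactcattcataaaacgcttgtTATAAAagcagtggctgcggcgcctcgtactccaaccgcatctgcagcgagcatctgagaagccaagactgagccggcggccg
FOSB, chr19:45467746-45468045, plus strand: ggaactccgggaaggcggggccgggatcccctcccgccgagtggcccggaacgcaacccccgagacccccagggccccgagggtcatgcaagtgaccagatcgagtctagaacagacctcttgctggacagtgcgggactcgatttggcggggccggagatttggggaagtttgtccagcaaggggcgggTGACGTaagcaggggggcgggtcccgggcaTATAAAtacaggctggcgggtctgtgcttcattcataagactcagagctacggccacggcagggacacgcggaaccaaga
EGR1 has CArG boxes at -105 to -96 and at -83 to -74 from the start site, and TGACGT at -136 to -131 and at -67 to -62 on the strand opposite to the gene. EGR2 has a CArG box at -71 to -62 and TGACGT at -55 to -50 on the strand opposite to the gene. This EGR2 window was not joined to the hg19 regions given below. It need not hold the EGR2 start that PRO-cap read. FOS has TGACGT at -64 to -59 and a TATA box at -33 to -28, and FOSB has them at -60 to -55 and at -30 to -25. Windows of 7 of the 10 genes were matched by symbol, and EGR3, FOSL1 and IER3 are named only. Of these 7 genes, 2 hold a CArG box, 4 hold TGACGT and 3 a TATA box (FOS, FOSB and JUNB), where 1.29%, 7.98% and 11.5% of 35116 RefSeq windows of this length do. A gene counts if any of its windows matches, and EGR2 has several, while the shares are per single window. The full element TGACGTCA, which contains TGACGT, is in 1.85% of windows and the AP-1 site TGANTCA in 7.71%, and neither is in a window of these 7 genes. The EGR site GCGNGGGCG is in 9.43% of windows and in those of EGR1 and of another EGR2 start site. A match describes letters and shows no binding. Sites more than 250 bases before the start were not searched, so a gene without a match may hold one there.

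Transcription of EGR1 and FOS rose with Aza, and more in the gene body than at the start site. Initiation at EGR1 was higher in Aza-treated than in untreated cells by 0.86 ± 0.11 (log2, SE) in the authors' deposited table, a fold of 1.82 (95% interval 1.56 to 2.11, adjusted p = 3.47e-11). FOS initiation was higher by 0.41 ± 0.10 in the authors' deposited table, a fold of 1.33 (1.16 to 1.52, adjusted p = 0.00411). EGR2 had 0.57 ± 0.24 in the authors' deposited table and was not called (adjusted p = 0.169). Its mean level of 74.9 over a region of 151 bp was the lowest of the 3, with 1127 over 111 bp for EGR1 and 722 over 121 bp for FOS. So 2 of 3 genes were called higher, where 1.92% of all initiation regions were. The regions lie at chr5:137801160-137801270 for EGR1 and chr14:75745520-75745640 for FOS, both on the plus strand, and at chr10:64577710-64577860 on the minus strand for EGR2 (hg19).

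Elongation of both genes was among the most raised in the table. EGR1 elongation was higher in Aza-treated than in untreated cells by 2.60 ± 0.19 (log2, SE) in the authors' deposited table, a fold of 6.06 (95% interval 4.68 to 7.85, adjusted p = 7.99e-39), which ranked 11 of 3888 regions by fold. FOS was higher by 1.44 ± 0.13 in the authors' deposited table, a fold of 2.71 (2.27 to 3.24, adjusted p = 4.21e-25), and ranked 46. Both were called higher, where 7.18% of all elongation regions were. The regions span chr5:137801321-137803728 for EGR1 and chr14:75745691-75747780 for FOS (hg19), each starting 51 bp past its initiation region. The mean PRO-seq level per kilobase was 1070 for EGR1 and 141 for FOS. The plot of fold change against level shows both genes high in the Aza panel.

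**Figure D1:**
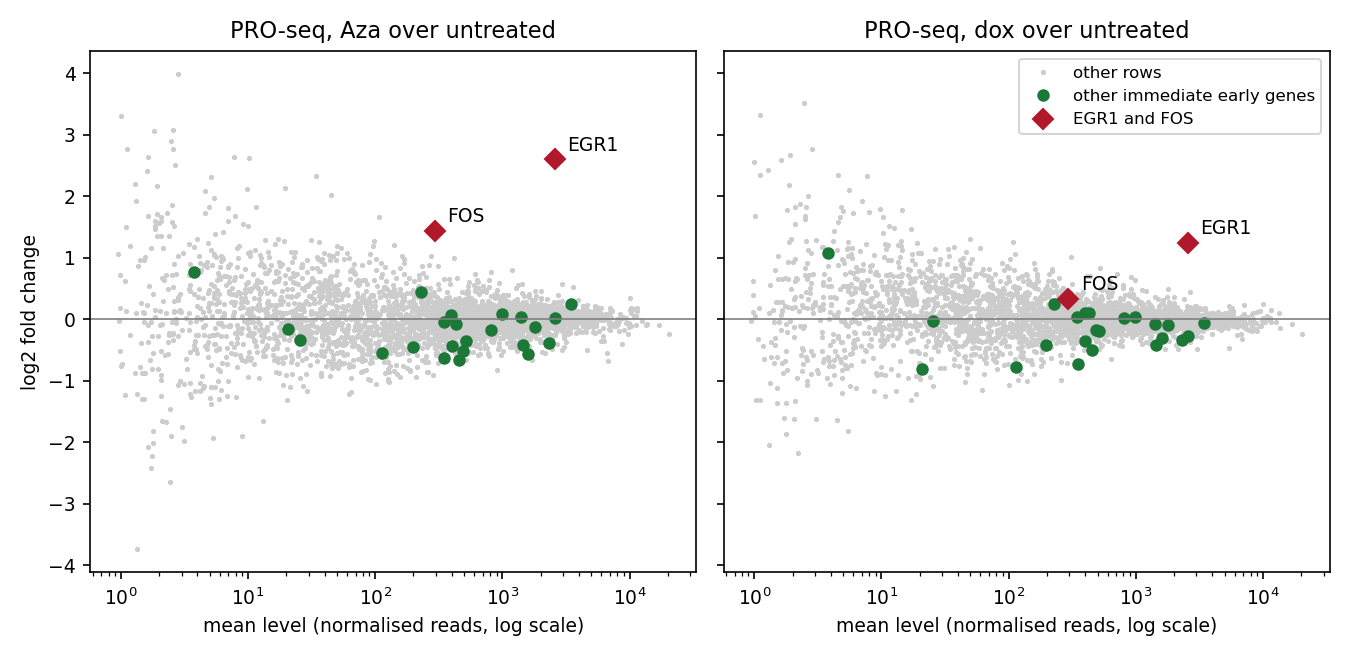
PRO-seq elongation regions: log2 fold change over untreated cells (authors' deposited values) against mean level in normalised reads on a log axis, Aza on the left and dox on the right. Diamonds are EGR1 (2.60 with Aza, 1.24 with dox) and FOS (1.44 with Aza, 0.33 with dox), green points are other immediate early genes and grey points all other regions; by fold, EGR1 ranks 11 and FOS 46 of 3888 with Aza, and EGR1 ranks 46 and FOS 517 with dox.

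With dox, EGR1 was called in both layers and FOS in neither. EGR1 initiation was higher in dox-treated than in untreated cells by 0.68 ± 0.11 (log2, SE) in the authors' deposited table (fold 1.60, 95% interval 1.37 to 1.86, adjusted p = 5.20e-06). EGR1 elongation was higher by 1.24 ± 0.19 in the authors' deposited table (fold 2.37, 1.83 to 3.07, adjusted p = 4.19e-08). FOS had 0.04 ± 0.10 for initiation (adjusted p = 0.927) and 0.33 ± 0.14 for elongation (adjusted p = 0.143) in the authors' deposited tables. EGR2 initiation had 0.37 ± 0.24 in the authors' deposited table (adjusted p = 0.457). Thus 1 of 3 genes was called higher at initiation, against 1.95% of all regions, and 1 of 2 at elongation, against 3.32%. No TETmut-CD cells were read by PRO-cap or PRO-seq. Effects of dox itself and of TET-CD therefore cannot be told apart in these layers.

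Aza and dox share untreated libraries, so their direct comparison is the test of the difference. Elongation was higher in Aza-treated than in dox-treated cells by 1.36 ± 0.19 for EGR1 (log2, SE; adjusted p = 6.82e-10) and by 1.11 ± 0.13 for FOS (adjusted p = 1.05e-14) in the authors' deposited table. These are 2 of 2 genes, where 1.52% of all regions were called higher. For initiation the authors' deposited table gave 0.19 ± 0.11 for EGR1, 0.37 ± 0.10 for FOS (adjusted p = 0.235) and 0.19 ± 0.24 for EGR2, and 0 of 3 genes were called, where 0.0855% of regions were.

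The layers were then set against each other gene by gene. The z of each difference of log2 fold changes was adjusted by the Benjamini-Hochberg method over all genes in both tables. With Aza, PRO-seq minus PRO-cap was 1.74 ± 0.22 for EGR1 (SE; adjusted p = 1.20e-11) and 1.03 ± 0.16 for FOS (adjusted p = 3.01e-07), 2 of 2 genes called where 4.83% of genes were. With dox it was 0.57 ± 0.22 for EGR1 (95% interval 0.13 to 1.0, adjusted p = 0.238) and 0.30 ± 0.17 for FOS (-0.04 to 0.63, adjusted p = 0.560), 0 of 2 called where 0.814% of genes were. The dox intervals do not show that both layers moved alike.

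Total RNA of EGR1 changed less than its elongation. Its recovered log2 fold change with Aza was 0.44 ± 0.31 (fold 1.35, 95% interval 0.894 to 2.05), and total RNA minus PRO-seq was -2.16 ± 0.36 (adjusted p = 1.06e-06), 1 of 2 genes called where 7.06% of genes were. With dox its total RNA had -0.33 ± 0.27 in TET-CD cells. The difference from PRO-seq was then -1.57 ± 0.33 (adjusted p = 0.00209, 1 of 2 genes where 0.563% of genes were called). The difference from PRO-cap was -1.0 ± 0.29 (adjusted p = 0.0308, 1 of 3 genes where 3.19% of genes were called). With total RNA of MeBP parental cells, whose genotype label differs from that of the PRO cells, EGR1 total RNA minus PRO-seq was -2.21 ± 0.29 for Aza (adjusted p = 2.14e-11, 10.2% of genes called) and -1.18 ± 0.28 for dox (adjusted p = 0.0102, 0.531% of genes called). The dox difference from PRO-cap was then -0.61 ± 0.23 and no longer called (adjusted p = 0.149, 2.49% of genes called).

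Total RNA of FOS rose with Aza by a recovered 0.99 ± 0.29, a fold of 1.98 (95% interval 1.33 to 2.95). Total RNA minus PRO-seq was -0.45 ± 0.32 (95% interval -1.09 to 0.18, adjusted p = 0.496) and was not called, but became -0.69 ± 0.23 with MeBP parental total RNA and was called (adjusted p = 0.0336). Total RNA minus PRO-cap was 0.58 ± 0.31 for FOS (adjusted p = 0.277), -0.43 ± 0.32 for EGR1 (adjusted p = 0.503) and -1.07 ± 0.65 for EGR2 (adjusted p = 0.366), 0 of 3 called where 7.27% of genes were. EGR2 had a mean total RNA level of 7.06, so that its difference was not detectable at this depth. Whether the RNA and PRO libraries came from shared cultures is not stated.

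**Figure D2:**
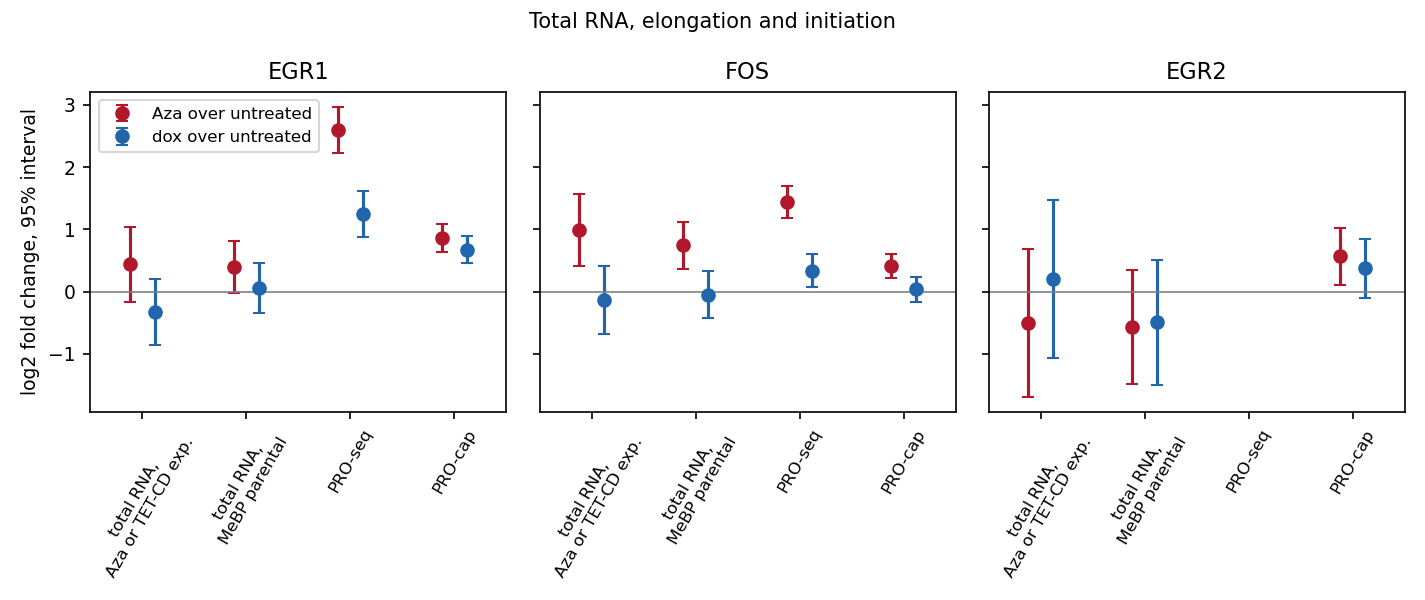
Log2 fold change over untreated cells with its 95% interval for EGR1, FOS and EGR2 in total RNA (recovered values of 2 experiments), PRO-seq and PRO-cap (authors' deposited values), Aza in red and dox in blue. EGR1 is highest in PRO-seq with both treatments (2.60 and 1.24), and its total RNA lies at 0.44 with Aza and -0.33 with dox in the first experiment; EGR2 has no PRO-seq point.

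Narrower windows split the starts of these 3 genes by class. The FOS primary start site (chr14:75745520-75745540, hg19) was higher in Aza-treated than in untreated cells by 0.36 ± 0.10 in the authors' deposited table (adjusted p = 0.00695), 1 of 2 genes where 12.2% of primary sites were called. With dox it had 0.04 ± 0.10 there, and 0 of 2 genes were called where 11.3% of primary sites were in the authors' deposited table. A primary site of EGR1 is not analysed here. Secondary sites just past the FOS primary site had 1.19 ± 0.40 with Aza (adjusted p = 0.0895) and 0.73 ± 0.41 with dox in the authors' deposited table. EGR1 secondary sites had 0.60 ± 0.25 with Aza and 0.67 ± 0.25 with dox in the authors' deposited table. None of these secondary sites was called, where 2.04% were with Aza and 2.15% with dox.

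Starts classed as within the genes gave no call. Those scattered over the gene body, named dispersed, had 1.92 ± 0.75 for EGR1 and 2.65 ± 1.42 for FOS with Aza in the authors' deposited table, at mean levels of only 8.04 and 2.51. Of dispersed windows, 0.441% were called with Aza and 0.0192% with dox. EGR2 intragenic starts, at a mean level of 285, had -0.12 ± 0.15 with Aza and -0.05 ± 0.15 with dox in the authors' deposited table, where 5.79% and 4.91% of intragenic windows were called. These EGR2 starts lie at chr10:64574880-64576580 (hg19), and the EGR2 primary site had a mean level of 201. Whether the intragenic window holds a RefSeq start of EGR2 was not examined. No divergent or antisense window of the 3 genes was called either. The shares called with Aza and with dox were 14.6% and 12.5% for divergent start sites, 3.19% and 2.97% for divergent initiation, and 0.0694% and 0% for divergent elongation. They were 5.62% and 3.48% for antisense intragenic and 0.468% and 0.18% for antisense dispersed starts. Antisense total RNA of the 10 genes was called in 0 of the 20 cases with an adjusted p. Of these, 9 were with thio and 9 with dox and TETmut-CD, where 0% and 0.00568% of antisense genes were called, and 1 each was in U2OS with Aza (6.32%) and with dox (2.17%). An unadjusted p was given in 88 of 100 cases, and 0 of these 88 were under 0.05. The mean antisense level was under 20 in 88 of the 100 cases, while FOSL1 had 20.8 to 144 and the other genes at most 24.6.

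**Figure D3:**
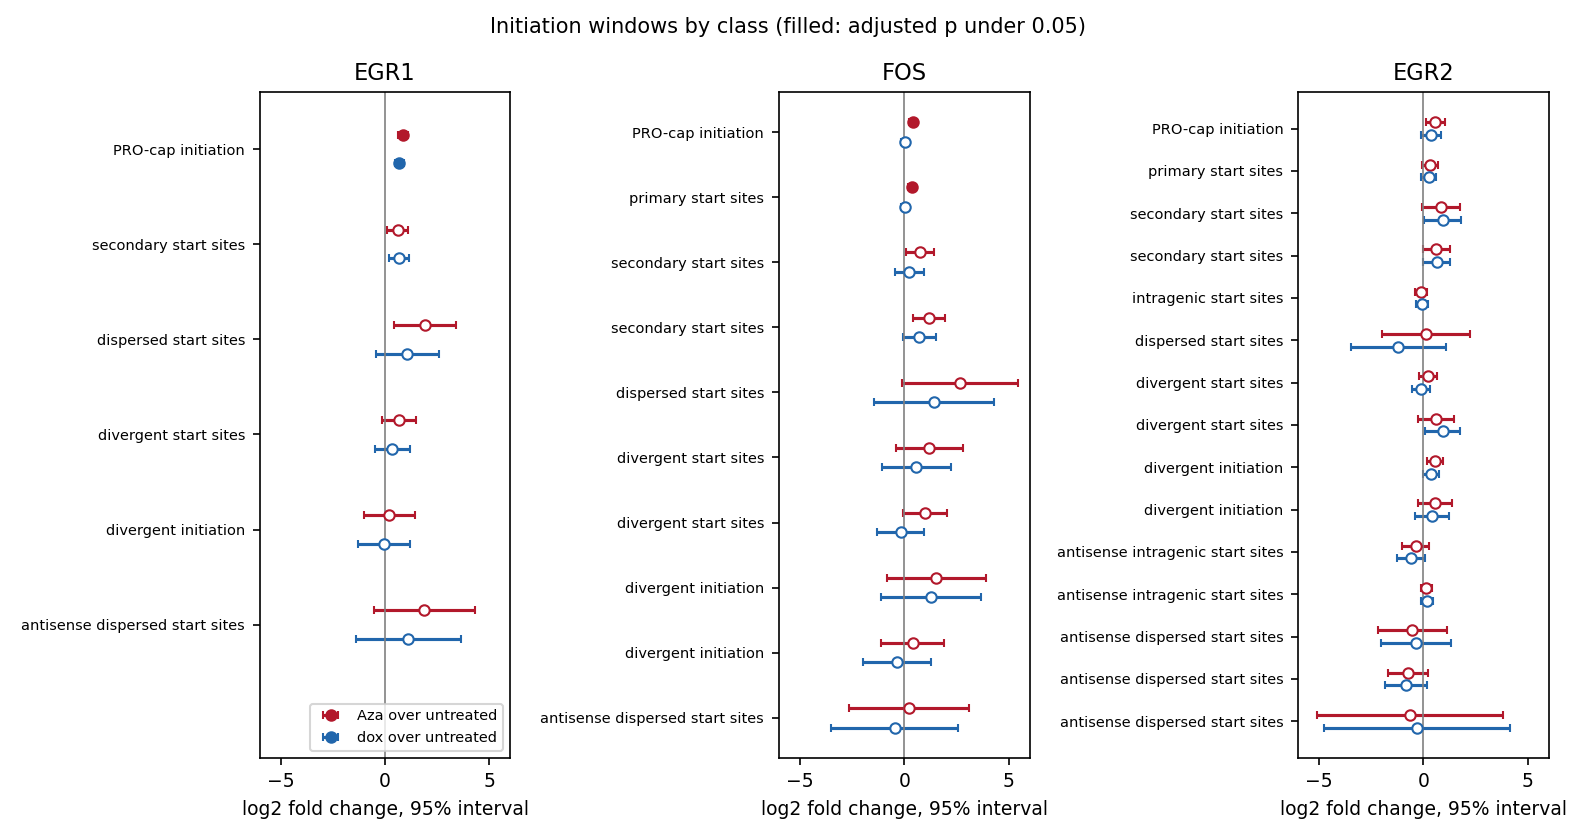
Log2 fold change over untreated cells with 95% interval (authors' deposited values) of every initiation window of EGR1, FOS and EGR2 by class, Aza in red above dox in blue; filled points have an adjusted p under 0.05. Initiation at EGR1 (0.86 with Aza, 0.68 with dox) and at FOS (0.41 with Aza) and the FOS primary site (0.36 with Aza) are the filled points.

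In total RNA, 16 comparisons were read for all 10 genes. FOS was called higher in 9 of them, FOSL1 in 5, EGR1 in 4, FOSB in 3 and JUNB in 2. JUN was called lower in 3 and IER2 lower in 2, and EGR2, EGR3 and IER3 were called in none. EGR2 had mean levels of 7.06 to 42.5 with standard errors of 0.31 to 0.65 (log2), and EGR3 had 8.37 to 15.8 with 0.40 to 0.70, so small changes of these genes were not detectable. JUN had mean levels of 4359 to 6147 with standard errors of 0.03 to 0.24. Several comparisons share untreated libraries, so these counts are not independent.

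**Figure D4:**
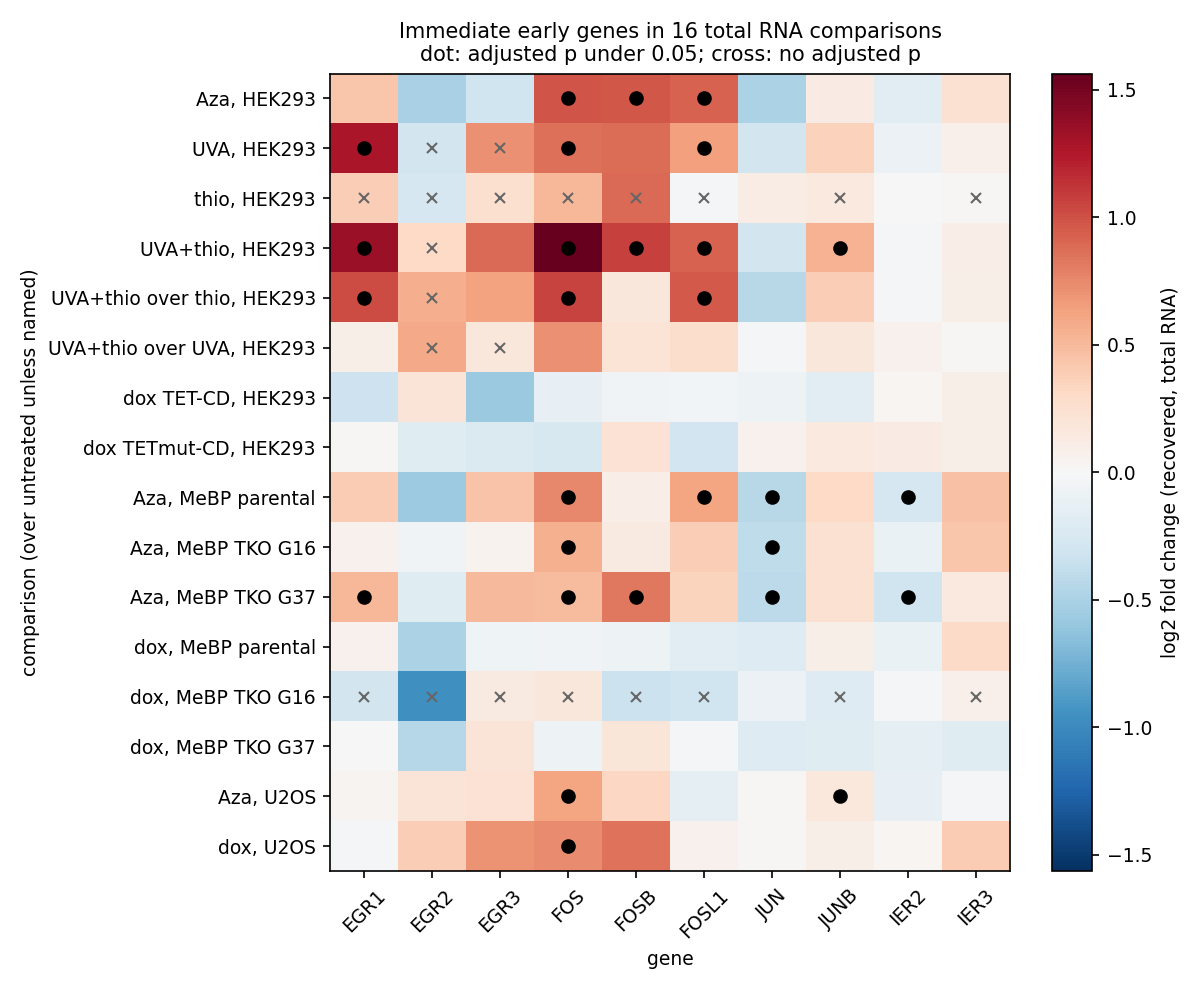
Recovered log2 fold changes in total RNA of the 10 genes (columns) in 16 comparisons (one per line), red where the first-named group is higher and blue where it is lower. Dots mark an adjusted p under 0.05 and crosses genes without an adjusted p; FOS carries 9 dots on red, and JUN (3) and IER2 (2) carry dots on blue.

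UVA with thio called more genes of the set higher than any other of the 16 comparisons. Of 9 genes with an adjusted p, 5 were called higher than in untreated cells, where 5.37% of all genes were. Recovered log2 fold changes were 1.56 ± 0.29 for FOS (fold 2.96, 95% interval 1.99 to 4.38) and 1.35 ± 0.29 for EGR1 (fold 2.56, 1.72 to 3.81). Adjusted p-values were 1.06e-05 and 0.000281 in the authors' deposited table. FOSB had 1.07 ± 0.33, FOSL1 0.92 ± 0.23 and JUNB 0.54 ± 0.15, with adjusted p = 0.0211, 0.00225 and 0.00802 in the authors' deposited table. These include all 3 FOS genes and 1 of their JUN partners. EGR3 had 0.89 ± 0.43 (the authors' deposited table gave adjusted p = 0.188), JUN had -0.29 ± 0.22, IER2 -0.02 ± 0.12 and IER3 0.10 ± 0.26, none called. The median over the 10 genes was 0.71, against -0.0037 over all genes tested.

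UVA alone called 3 of 8 genes higher, where 7.51% of all genes were. EGR1 had 1.27 ± 0.29 (adjusted p = 0.00097), FOS 0.86 ± 0.30 (adjusted p = 0.0377) and FOSL1 0.65 ± 0.24 (adjusted p = 0.0486), with these p-values from the authors' deposited table. FOSB at 0.87 ± 0.34 and JUNB at 0.36 ± 0.15 were not called (adjusted p = 0.0664 and 0.0965 in the authors' deposited table). Both values point the way they do with UVA and thio. Thio alone called 0 of the 2 genes with an adjusted p, JUN and IER2, where 0.0553% of all genes were called. FOS had 0.52 ± 0.31 and EGR1 0.38 ± 0.35 with thio. FOSB had a recovered 0.88 ± 0.33 with thio. The authors' deposited table gives it 0.0049 ± 0.025, an unadjusted p of 0.00712 and no adjusted p.

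UVA with thio set against thio alone called 3 of 9 genes higher, EGR1 (1.02 ± 0.29), FOS (1.06 ± 0.28) and FOSL1 (0.96 ± 0.23), where 2.31% of all genes were. Set against UVA alone it called 0 of 8, where 3.03% of all genes were called, and FOS had 0.72 ± 0.28 (the authors' deposited table gave adjusted p = 0.126). The UVA effect with thio minus that without thio was -0.25 ± 0.41 for EGR1 (adjusted p = 0.920) and 0.20 ± 0.41 for FOS. It was called for 0 of 10 genes, where 0.711% of genes were.

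In the first HEK293 experiment, all 3 FOS genes were higher in total RNA with Aza. FOS (0.99 ± 0.29, adjusted p = 0.00971), FOSB (0.97 ± 0.34, adjusted p = 0.0347) and FOSL1 (0.92 ± 0.23, adjusted p = 0.00116) were called higher, with these p-values from the authors' deposited table. These are 3 of 10 genes, where 7.17% of all genes were called higher, and 0 were called lower, where 7.14% were. EGR1 had the larger elongation change of the 2 genes with a PRO-seq region. It was not called in total RNA (the authors' deposited table gave adjusted p = 0.386), nor was JUN at -0.50 ± 0.24 (adjusted p = 0.153 there). The median over the 10 genes was 0.19, against 0.01 over all genes tested.

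In the second HEK293 experiment, Aza called FOS higher and JUN lower in all 3 lines. MeBP parental cells had FOS at 0.75 ± 0.19 and FOSL1 at 0.62 ± 0.21, called higher (10.4% of all genes), and JUN at -0.44 ± 0.08 and IER2 at -0.27 ± 0.10, called lower (12.3% of all genes). G16 cells had FOS at 0.55 ± 0.19, called higher (11.6% of all genes), and JUN at -0.40 ± 0.08, called lower (12% of all genes). G37 cells had EGR1 at 0.52 ± 0.21, FOS at 0.50 ± 0.18 and FOSB at 0.82 ± 0.28, called higher (12.1% of all genes), and JUN at -0.41 ± 0.08 and IER2 at -0.31 ± 0.10, called lower (12.6% of all genes). So 2 genes rose in MeBP parental, 1 in G16 and 3 in G37 cells, and 2, 1 and 2 of the 10 fell; in G16 both shares are near those of all genes. FOSB, called in the first experiment, was not called in MeBP parental (0.11 ± 0.28) or G16 cells (0.14 ± 0.28), and FOSL1 was not called in G16 (0.38 ± 0.21) or G37 cells (0.35 ± 0.20). EGR1 in G37 sits at the threshold (the authors' deposited table gave adjusted p = 0.0496).

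The Aza effects did not differ detectably between these lines. The effect in G16 minus that in MeBP parental cells was called for 0 of 10 genes (0.0378% of genes called), and so was that in G37 minus MeBP parental cells (0.00539%). For JUN these differences were 0.04 ± 0.11 and 0.02 ± 0.11, and for FOSB in G37 0.72 ± 0.40. The same differences for dox were called for 0 of 10 genes each, where 0.41% and 0% of genes were.

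Dox called none of the 10 genes in HEK293 total RNA. With TET-CD, 0 of 10 were called where 0.883% of genes were, and with TETmut-CD 0 of 10 where 0.0276% were. In MeBP parental, G16 and G37 cells, 0 of 10, 0 of 2 and 0 of 10 genes with an adjusted p were called, where 1.3%, 0.364% and 0.263% of genes were. EGR1 had -0.33 ± 0.27 with TET-CD and 0.02 ± 0.27 with TETmut-CD. The difference of these effects was -0.35 ± 0.38, and 0 of 10 genes were called in it, where 0.116% of genes were. The Aza effect minus the dox effect, from separate experiments, was called for 1 of 10 genes, FOSL1, at 0.96 ± 0.30 (adjusted p = 0.0340), where 3.84% of genes were. It was 1.12 ± 0.41 for FOS (adjusted p = 0.104) and 0.76 ± 0.41 for EGR1 (adjusted p = 0.373).

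In U2OS cells FOS rose with both treatments while EGR1 was not called. FOS was higher after Aza by 0.62 ± 0.09 (fold 1.54, 95% interval 1.36 to 1.74, the authors' deposited table gave adjusted p = 1.23e-10). It was higher after dox by 0.74 ± 0.09 (fold 1.67, 1.48 to 1.88, the authors' deposited table gave adjusted p = 1.60e-14). JUNB was higher after Aza by 0.16 ± 0.05 (the authors' deposited table gave adjusted p = 0.0147). These are 2 of 10 genes with Aza, where 10.8% of all genes were called higher, and 1 of 10 with dox, where 5.8% were. EGR1 had 0.04 ± 0.12 with Aza (fold 1.03, 95% interval 0.871 to 1.21) and -0.03 ± 0.12 with dox (fold 0.983, 0.833 to 1.16). FOSL1 had -0.15 ± 0.06 with Aza and was not called (the authors' deposited table gave adjusted p = 0.0525).

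Mean levels in U2OS were 588 for FOS, 370 for EGR1 and 1416 for FOSL1, and in the Aza and UVA experiment of HEK293 cells, normalised separately, 71.0, 66.4 and 64.3. The FOS effect of dox in U2OS minus that in HEK293 TET-CD cells was 0.87 ± 0.29 (adjusted p = 0.103), and 0 of 10 genes were called, where 1.9% of genes were. Aza doses differed between the lines, so their Aza values stand side by side without a test.

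**Figure D5:**
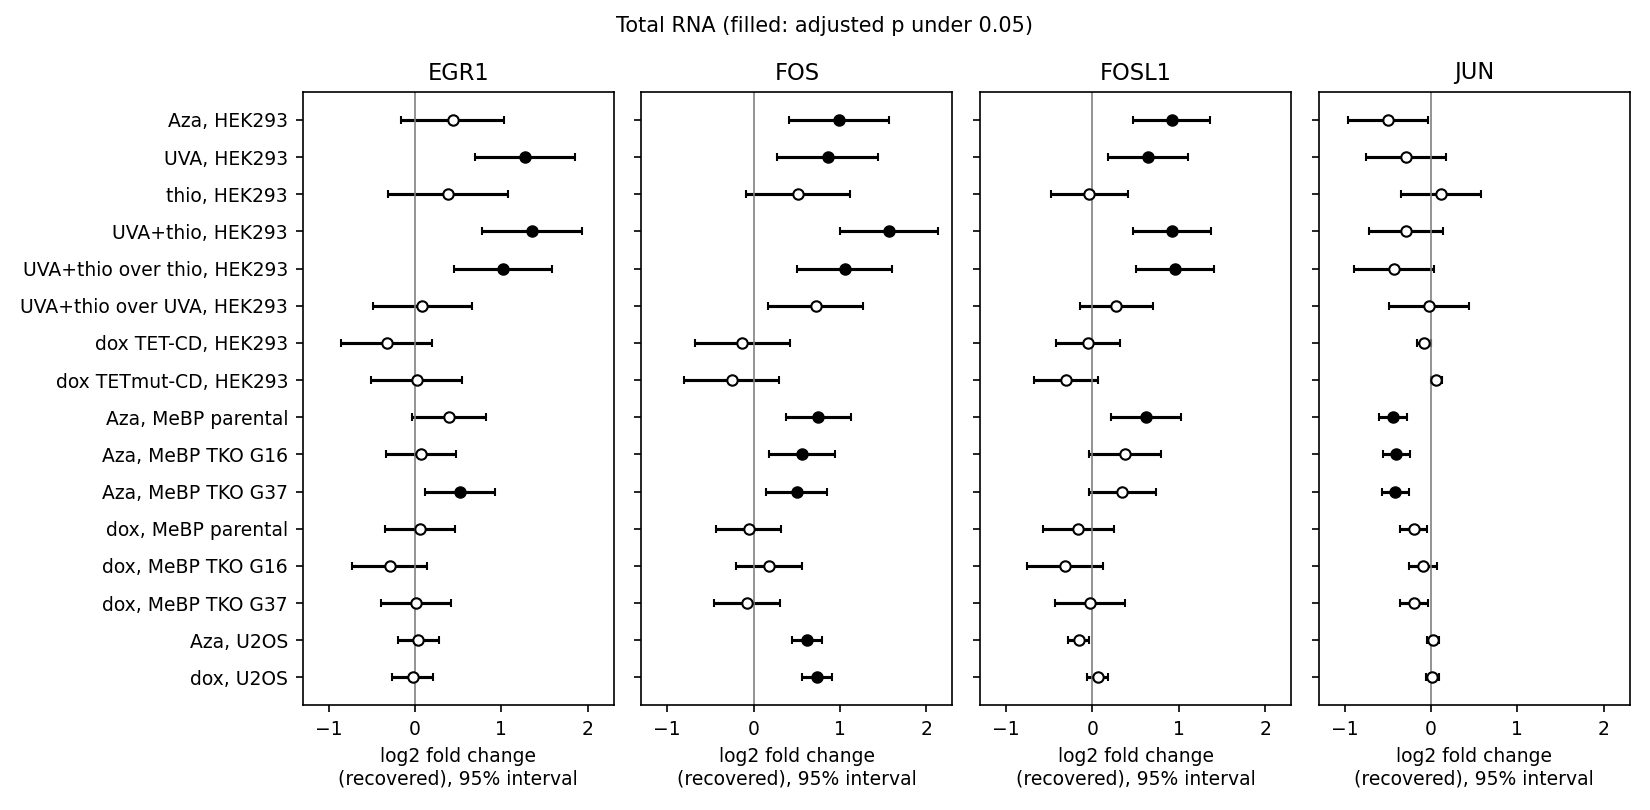
Recovered log2 fold changes in total RNA with 95% intervals for EGR1, FOS, FOSL1 and JUN in all 16 comparisons; filled points have an adjusted p under 0.05. FOS is filled in every Aza comparison (0.50 to 0.99) and in dox-treated U2OS cells (0.74), and JUN is filled below 0 in the 3 MeBP lines with Aza.

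Most other immediate early genes did not rise with EGR1 and FOS in elongation. Of 19 with a PRO-seq region, Aza called 2 higher and 8 lower, where 7.18% of all regions were called higher and 7.95% lower. Dox called 0 higher and 7 lower, where 3.32% and 2.52% were. Higher with Aza were ARC (0.44) and TRIB1 (0.25) in the authors' deposited table. A second TRIB1 region, at a mean level of 114 against 3448, was called lower with Aza there (-0.56, adjusted p = 0.0334). Lower with Aza were HES1 (-0.56 ± 0.07), a repressor downstream of Notch, ZFP36L1 (-0.39 ± 0.06), which binds AU-rich messages for decay, PPP1R15A (-0.67 ± 0.12), a stress phosphatase subunit, and ID3 (-0.62 ± 0.12), all in the authors' deposited table. Lower with dox were ID3 (-0.73 ± 0.12) and the nuclear receptor NR4A2 (-0.41 ± 0.09) in the authors' deposited table. Initiation was called higher for 1 of 20 with either treatment, where 1.92% of all initiation regions were with Aza and 1.95% with dox. This was the matricellular gene CYR61 (0.35 ± 0.09 with Aza, 0.32 ± 0.09 with dox in the authors' deposited table).

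In total RNA, more of them were called higher than lower with UVA and thio and with Aza, and in U2OS also with dox. UVA with thio called 11 of 37 higher and 0 lower, where 5.37% and 4.15% of all genes were, among them ID3 (0.63 ± 0.08), ID1 (0.78 ± 0.12), PPP1R15A (0.61 ± 0.11) and the kinase gene SGK1 (0.60 ± 0.11). Aza in HEK293 called 6 of 38 higher and 2 lower, where 7.17% and 7.14% of all genes were. The call with the smallest adjusted p was a fall of the growth regulator MYC (-0.80 ± 0.09), the other gene lower was MAFK (-0.37 ± 0.07), and BTG2 (0.69 ± 0.12) and SGK1 (0.61 ± 0.11) were higher. Aza in U2OS called 16 of 40 higher and 5 lower, where 10.8% and 12.9% of all genes were, with the phosphatase gene DUSP1 (0.35 ± 0.04) higher. Dox in U2OS called 13 of 39 higher and 0 lower, where 5.8% and 6.43% of all genes were, with ATF3 (0.24 ± 0.05) higher. Dox with TET-CD in HEK293 called 0 of 38 higher and 1 lower, MYC (-0.13 ± 0.03), where 0.883% of all genes were called in either direction. The median with UVA and thio was 0.18 over these genes, against 0.71 over the 10 genes of the set and -0.0037 over all genes.

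Lists of genes that act on the set were read the same way in total RNA. Nascent values are added here for the list of pausing and release only. Over all genes, Aza in HEK293 called 7.17% higher and 7.14% lower, UVA with thio 5.37% and 4.15%, Aza in MeBP parental cells 10.4% and 12.3%, and Aza in U2OS 10.8% and 12.9%. Of 22 genes on the route to serum response factor and CREB, Aza in HEK293 called 1 higher (MAPK3, the kinase ERK1, 0.30 ± 0.08) and 3 lower (RPS6KA3, a kinase that acts on CREB, at -0.25 ± 0.05), and UVA with thio called 0. Aza in U2OS called 0 higher and 8 lower, among them the kinase gene MAP2K2 (-0.32 ± 0.04), and Aza in MeBP parental cells 2 higher and 5 lower. Of 21 genes of pausing and release, Aza called 2 higher and UVA with thio 6 higher, with 0 lower in either, and Aza in U2OS called 1 higher and 4 lower. HEXIM1, which holds the release kinase P-TEFb inactive, had 0.35 ± 0.09 with Aza and 0.48 ± 0.09 with UVA and thio. Of 18 genes of AU-rich message decay, of which ZFP36 and ZFP36L1 also stand among the other immediate early genes, Aza in HEK293 called 0 and UVA with thio 1, KHSRP (0.19 ± 0.06). With Aza this list had 1 higher and 5 lower in MeBP parental cells and 1 higher and 8 lower in U2OS. It had 3 higher and 3 lower in G16 cells (11.6% and 12% of all genes). In G37 cells it had 4 higher and 2 lower (12.1% and 12.6%). FOS was called higher with Aza in each of these lines. ZFP36L1 had -0.33 ± 0.04 in U2OS and 0.41 ± 0.07 in G37 cells. A link between this list and FOS was not tested. Of 10 AP-1 partners and EGR corepressors, UVA with thio called 3 higher and 1 lower and Aza 0 higher and 2 lower. ATF4 (-0.33 ± 0.07) was lower with UVA and thio.

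Total RNA of p53 and DNA damage genes rose with Aza in HEK293 cells beside the FOS genes. In the first HEK293 experiment, 9 of 11 were called higher, where 7.17% of all genes were, with CDKN1A, which stops the cell cycle, at 0.80 ± 0.09 and MDM2, which degrades p53, at 0.50 ± 0.05, and 0 were lower. Aza called 9, 10 and 7 of 11 higher in MeBP parental, G16 and G37 cells, where 10.4%, 11.6% and 12.1% of all genes were. UVA with thio called 4 of 11 higher (5.37% of all genes), and UVA alone, with which EGR1 and FOS rose, called 0 higher (7.51%) and 1 lower (5.25%). In U2OS, where FOS rose with Aza, Aza called 1 of 11 higher (10.8%) and 2 lower (12.9%). Of the nascent regions of this list, none was called higher with Aza. Elongation was called lower for 2 of 3 genes, BBC3 (-0.45 ± 0.10) and GADD45A (-0.27 ± 0.09) in the authors' deposited table, and higher for 0, where 7.95% and 7.18% of all regions were. Initiation was called lower for 1 of 3, BBC3 (-0.36 ± 0.10) in the authors' deposited table, where 2.51% of all regions were. BTG2 stands both in this list and among the other immediate early genes. Their part in the rise of the FOS genes was not tested.

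Likeness over the 16 comparisons was scored by the Pearson correlation of recovered log2 fold changes, among 3224 well measured genes that were called in at least 3 comparisons. Most like EGR1 were ETV5 (0.96), MAFG (0.95), BRPF1 (0.94), SPRY4 (0.94) and B4GALT5 (0.93). Most like FOS were DUSP5 (0.92), ESCO2 (0.92), PPP1R15A (0.89), COPS8 (0.87) and KIF4A (0.83). Within the set, EGR1 and JUNB had 0.84, EGR1 and FOSL1 0.80, FOS and FOSL1 0.83, and FOSL1 and JUN -0.77. Since comparisons share untreated libraries and experiments, these values describe the tables and carry no test.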

How the data were processed

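Per the labels, total RNA, PRO-cap and PRO-seq libraries were made from HEK293 and U2OS cells, 3 per group. The submitters' processing notes name DESeq2 1.22.1, R 3.5.1, STAR 2.4.2, deepTools 3.0.2, Picard 1.139, Bowtie2 2.2.6, Trim Galore 0.4.3, bedtools 2.20.1 and SAMtools 0.1.19, with builds hg19 and galGal5, without roles. The deposited tables are the authors' comparisons, 37 in all. Each gives a mean normalised signal over libraries, a log2 fold change with standard error, and p-values with adjusted p-values, as deposited by the authors; the nascent tables add a Wald statistic, a score deposited by the authors. No counts per sample were used, so no model was refitted and depth per sample is unknown. Precision is given by the deposited standard errors, or by the recovered ones in total RNA. Replicates are not stated to be separate cultures, so p-values measure the spread between these libraries.

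Sense total RNA fold changes are shrunken in the way of a Cauchy prior. For each comparison the prior scale was estimated from the fold changes, errors and p-values, and the effect and error were solved for (recovered values). Where z was under 1 the error came from the comparison of the same experiment with the largest z, and the recovered value was z times that error. For dox in G37 the prior scale fitted poorly (median gap in z of 0.18). Every error of that comparison was therefore taken from another comparison of its experiment, whatever its z, and its values were set in the same way. As a check, 2 routes to the same contrast correlated at 0.997 over 13705 genes. The inference of shrinkage is from the values and is not given in the sources used here. Calls use the authors' adjusted p (below 0.05). Differences of effects (14, plus a second total RNA experiment added later) were tested by z over summed squared errors, treating both sides as independent libraries, with Benjamini-Hochberg adjustment over all genes. Where a symbol had several rows, the one with the highest mean level was used (70 symbols in total RNA). The same rule served the nascent regions in list counts and differences of effects, while shares of all regions use every region. From each gene list, up to 4 called genes with the smallest adjusted p and a mean level of at least 100 could be named, and a part of those is named here. ARC and TRIB1, higher in elongation with Aza, are named beyond this rule. The 5 most alike genes came from those called in at least 3 comparisons whose mean level reached 100 in every sense table. The genes and lists were chosen with earlier results of these data known. Promoters are from RefSeq (GRCh38.p14) and were not joined to hg19 coordinates. The recovery and the test of differences were run on simulated data shrunk under the same kind of prior. That run cannot test whether the prior holds for the deposited values. Software was Python 3.11.15, numpy 2.4.6, pandas 2.3.3, scipy 1.17.1 and matplotlib 3.10.9.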

Additional observations from a re-analysis of the deposited data

Results flagged for a closer look

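FOSL1, a FOS family member of AP-1, differed between treatments in HEK293 total RNA by a test of the difference itself. Its recovered log2 fold change was 0.92 ± 0.23 with Aza and -0.05 ± 0.19 with dox in TET-CD cells, a difference of 0.96 ± 0.30 (SE, 95% interval 0.38 to 1.54, adjusted p = 0.0340 by z over the genes of both DESeq2 tables). These values come from separate experiments with their own untreated cells, so experiment and treatment cannot be told apart in this difference. The MeBP experiment held both treatments in each line. FOSL1 had 0.62 ± 0.21 with Aza and -0.16 ± 0.21 with dox in MeBP parental cells. It had 0.38 ± 0.21 and -0.32 ± 0.23 in G16, and 0.35 ± 0.20 and -0.03 ± 0.21 in G37. Only the Aza value of MeBP parental cells was called. Aza and dox share untreated libraries there, so their difference was not tested.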

How the results depend on the processing

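No paired analysis was possible because the tables give comparisons and hold no values per sample, and leaving out single replicates was not run for the same reason. No result reversed. At an adjusted p below 0.01 in place of 0.05, the number of the 10 genes called was 1 with UVA, 1 with UVA and thio over thio, 2 with Aza in MeBP parental, 1 in G16, 1 in G37 and 1 in U2OS, and 0 for Aza minus dox in HEK293 and for dox total RNA minus PRO-cap. With adjustment over every gene with an unadjusted p, UVA called 1 (EGR1), and FOS (adjusted p = 0.0501) and FOSL1 (0.0644) were lost. In the primary start site table, where EGR1 is not analysed, 1 gene was called with Aza and 0 with dox. With the deposited, shrunken values, dox in U2OS minus HEK293 called 1 gene, FOS (0.72), and Aza total RNA minus PRO-cap 1, EGR1 (-0.82). Alternatives chosen after seeing the data were each gene's own recovered error, with which dox in U2OS minus HEK293 called 1 gene, FOS (0.85, adjusted p = 0.0408), and MeBP parental total RNA, with which Aza total RNA minus PRO-seq called 2 and dox total RNA minus PRO-cap 0. Centring on the median of all genes lost FOSL1 with UVA (adjusted p = 0.0501) and EGR1 with Aza in G37 (0.0539), and gained FOSL1, lower, with Aza in U2OS (0.0436). Mean level limits EGR2, EGR3 and FOSB most.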
